A study of Mus musculus with 6 samples.

Results

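The genes described here are 10 genes of mast cell biology, out of 29322 genes in the deposited comparison of mouse lung mesenchyme. They were chosen by symbol with earlier results of this comparison known, so their fold changes are a description and their p-values lend no independent support. Each symbol had 1 row in the authors' deposited table, and all 10 genes passed the authors' filter on low counts and carried an adjusted p. Bulk RNA-seq was done on 3 Yeti+/- and 3 wild-type libraries from adult mice. The Yeti allele raises output of interferon-gamma from its own gene, Ifng, per the series title. The labels give a tamoxifen injection for the mice of both groups and name no allele that it acts on. Cells were sorted as lacking the leukocyte protein CD45, the endothelial protein CD31 and the epithelial protein Epcam, with dead cells removed by DAPI. Cultured cells are named in the extraction protocol but not in the sort description. The labels do not say whether each library came from a separate animal, so the p-values measure the spread between these libraries, which may be technical.

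Mast cells are tissue-resident leukocytes that mature under Kit ligand, a growth factor made by fibroblasts, endothelium and epithelium and read by the receptor tyrosine kinase Kit. Their granules hold histamine, chymases, tryptases and a carboxypeptidase on a heparin scaffold, and antigen-bound IgE on the high-affinity receptor FcεRI triggers their release. Basophils, a blood lineage, share FcεRI, histamine synthesis and carboxypeptidase with mast cells in mice but make other granule proteases.

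The sorted libraries had the transcripts of mesenchyme at high level, and leukocyte and endothelial transcripts were present too. Collagen gene Col1a1 had fitted levels of 158855 normalized counts in Yeti and 130578 in wild-type, and Ptprc, which encodes CD45, had 5146 in Yeti and 4597 in wild-type. A fitted level is the group's level implied by the mean normalized count and the fold change of the authors' deposited table, which gives no values per library. Pecam1, which encodes CD31, stood at 1391 in Yeti and 1167 in wild-type, and Epcam at 66.1 in Yeti and 129 in wild-type. Ifng, the altered gene, had 24.4 in Yeti and 14.9 in wild-type (log2 fold change 0.71 ± 0.55 SE, adjusted p = 0.919 in the authors' deposited table). Its target Irf1, an interferon-induced transcription factor gene, had 12775 in Yeti and 3231 in wild-type. The 10 genes together had 173 of every 1000000 mean normalized counts.

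Transcripts of 3 chymase and tryptase genes were 10.1-fold to 22.4-fold lower in the Yeti libraries, while Tpsab1, a scarce tryptase gene, and the other 6 genes did not pass the test. Of the 10 genes, 3 fell and 0 rose at an adjusted p under 0.05 in the authors' deposited table (DESeq2 Wald test, Benjamini-Hochberg). Over all 20212 genes with an adjusted p, 0.994% were called lower and 1.85% higher, which is given as background only, since the genes were chosen on this comparison. The median log2 fold change was -0.24 for the 10 genes, from -4.49 to 0.84, against -0.00092 for all genes tested in the authors' deposited table. Summed over the 4 chymase and tryptase genes, the fitted level was 45.2 normalized counts in Yeti and 679 in wild-type. Summed over the other 6 genes it was 4590 in Yeti and 3926 in wild-type. Of these 6, 3 lay above 0 and 3 (Cpa3, Kit and Kitl) below. The largest gap was that of Hdc, at 2135 in Yeti and 1194 in wild-type, which did not pass. Mast cells are leukocytes, which the sort on CD45 was set to remove. In sorted bulk libraries, fewer cells of a type, fewer of them passing the sort and less RNA per cell cannot be told apart.

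**Figure D1:**
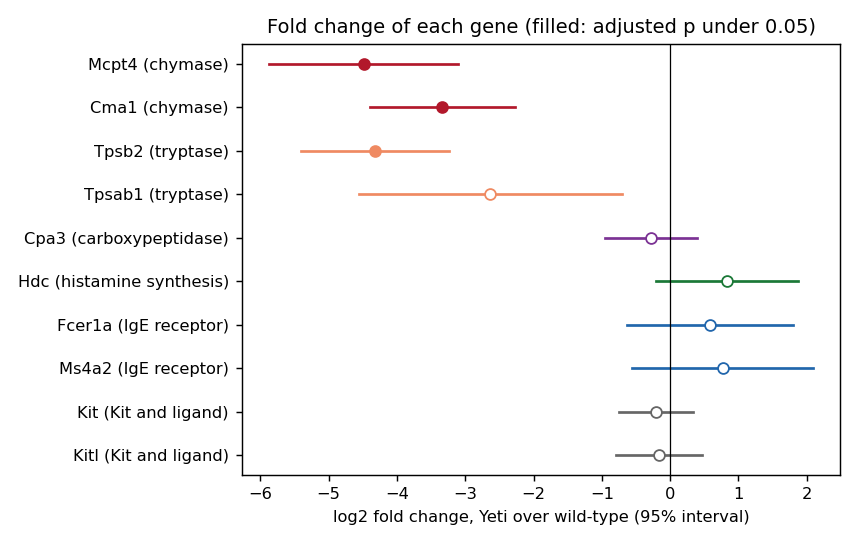
Log2 fold change, Yeti over wild-type, of each of the 10 genes in the authors' deposited table (x axis), with the 95% interval from its standard error as a line; filled points have an adjusted p under 0.05. The 4 chymase and tryptase genes lie between -4.49 and -2.63, and the other 6 lie between -0.28 and 0.84 with intervals that include 0.

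Mcpt4 encodes a chymase of connective tissue mast cells that cleaves matrix and peptide substrates (ENSMUSG00000061068, GRCm38 chromosome 14, 56059629 to 56062313, minus strand). It had a fitted level of 8.40 normalized counts in Yeti and 188 in wild-type. The log2 fold change was -4.49 ± 0.71 (SE), a 22.4-fold lower level in Yeti, adjusted p = 4.60e-08 in the authors' deposited table. This was the lowest fold change of the 10 genes and the 13th lowest of the 20212 genes tested. Cma1 encodes the other abundant chymase, mouse mast cell protease 5 (ENSMUSG00000022225, chromosome 14, 55941451 to 55944675, minus strand). Cma1 had 22.3 normalized counts in Yeti and 225 in wild-type. Its log2 fold change was -3.34 ± 0.54, 10.1-fold lower in Yeti, adjusted p = 1.44e-07 in the authors' deposited table.

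Tpsb2 encodes mast cell protease 6, a heparin-bound tetrameric tryptase (ENSMUSG00000033825, chromosome 17, 25366305 to 25369098, plus strand). Tpsb2 had 12.8 normalized counts in Yeti and 255 in wild-type. The log2 fold change of Tpsb2 was -4.31 ± 0.55, 19.9-fold lower in Yeti, adjusted p = 1.89e-12 in the authors' deposited table, the smallest p of the 10 genes. Tpsab1, its neighbour and the gene of mast cell protease 7, was scarce in both groups (ENSMUSG00000024173, chromosome 17, 25343245 to 25345562, minus strand). Tpsab1 had 1.70 normalized counts in Yeti and 10.5 in wild-type. At -2.63 ± 0.98 on the log2 scale, unadjusted p = 0.00749 and adjusted p = 0.169 in the authors' deposited table, it did not pass. Its mean of 6.11 normalized counts lay close to the lowest mean with an adjusted p, 4.57 in the authors' deposited table. No 50-base stretch of the Tpsb2 or Tpsab1 transcripts (GENCODE M21) occurred in a transcript of another gene. For Mcpt4, 5.48% of such stretches were shared with Cma2 or Mcpt9, and for Cma1, 5.38% with a predicted gene, so a small part of their reads could be assigned either way.

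**Figure D2:**
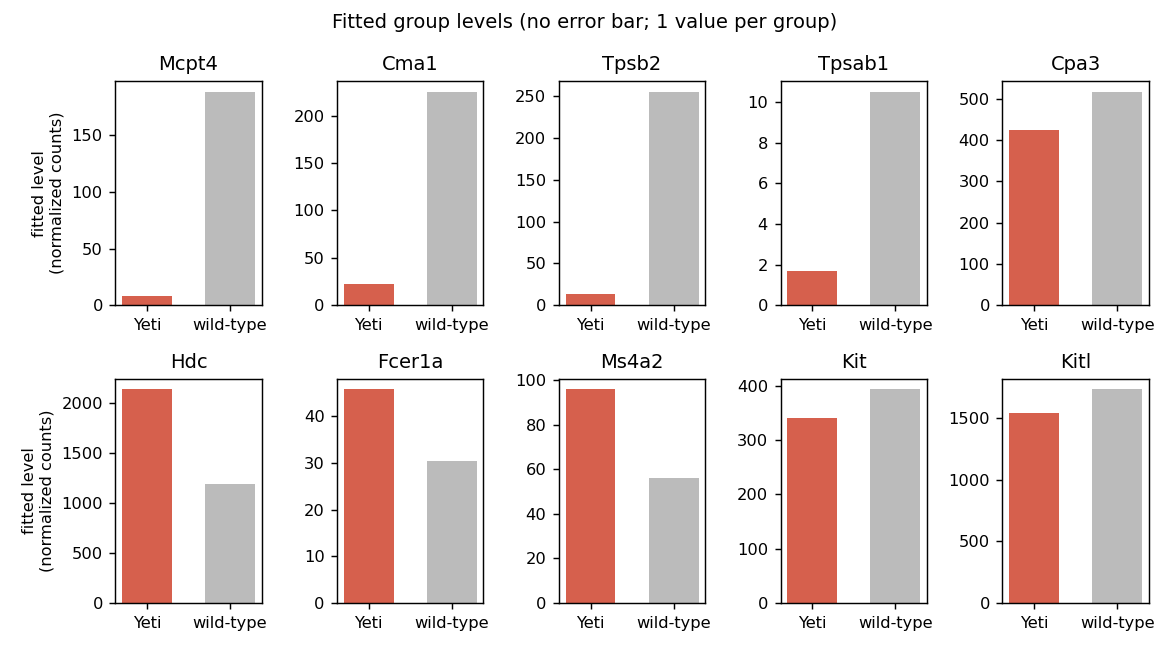
Fitted level in normalized counts (y axis, starting at 0, its own scale per gene) in Yeti and wild-type for each of the 10 genes; bars are group values derived from the authors' mean and fold change, with no error bar because the table has no values per library. Bars for Mcpt4, Cma1, Tpsb2 and Tpsab1 are low in Yeti, at 8.40, 22.3, 12.8 and 1.70 normalized counts.

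Carboxypeptidase A3, which is stored with the chymases in the same granules, had a fold change whose interval included 0. Cpa3 (ENSMUSG00000001865, chromosome 3, 20215620 to 20242181, minus strand) had 424 normalized counts in Yeti and 517 in wild-type. Its log2 fold change was -0.28 ± 0.34, adjusted p = 0.999 in the authors' deposited table, with a 95% interval from -0.95 to 0.39. A microRNA gene, Mir7007, overlaps Cpa3 on the same strand; the authors' deposited table gives it a mean normalized count of 19.3. The Cpa3 interval lies wholly above those of Mcpt4 (-5.88 to -3.10), Tpsb2 (-5.40 to -3.23) and Cma1 (-4.40 to -2.27). The difference between genes was not tested, since the errors of the genes' fold changes are not independent and the table holds no values per library. Per kilobase of exon, the fitted level of Cpa3 was 34.8 times that of Tpsb2 in Yeti and 2.13 times in wild-type.

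Hdc encodes the histidine decarboxylase that makes histamine, and basophils and other myeloid cells express it as well. Hdc (ENSMUSG00000027360, chromosome 2, 126593667 to 126619299, minus strand) had 2135 normalized counts in Yeti and 1194 in wild-type. The log2 fold change of Hdc was 0.84 ± 0.53, adjusted p = 0.765 in the authors' deposited table, with a 95% interval from -0.20 to 1.88. The interval holds both no difference and a level 1.88 higher in Yeti on the log2 scale, so neither is shown.

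The genes of the IgE receptor, found on mast cells and basophils, did not pass either, and their fitted levels were the higher ones in Yeti. Fcer1a, the IgE-binding alpha chain (ENSMUSG00000005339, chromosome 1, 173221284 to 173227214, minus strand), had 45.7 normalized counts in Yeti and 30.5 in wild-type. The log2 fold change of Fcer1a was 0.58 ± 0.62, adjusted p = 0.999 in the authors' deposited table, 95% interval -0.64 to 1.81. Ms4a2, the signal-amplifying beta chain (ENSMUSG00000024680, chromosome 19, 11615523 to 11623719, minus strand), had 96.0 in Yeti and 56.2 in wild-type. Ms4a2 stood at 0.77 ± 0.68 on the log2 scale, adjusted p = 0.977 in the authors' deposited table, 95% interval -0.55 to 2.10. Fcer1g, the gamma chain that all FcεRI-bearing cells and many other myeloid cells use, had 1220 in Yeti and 375 in wild-type. Its log2 fold change was 1.70 ± 0.56, adjusted p = 0.0743 in the authors' deposited table.

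Kit and its ligand gave the narrowest intervals around 0. Kit (ENSMUSG00000005672, chromosome 5, 75574916 to 75656722, plus strand), which lung endothelial cells and innate lymphoid cells also express, had 342 normalized counts in Yeti and 394 in wild-type. Its log2 fold change was -0.21 ± 0.28, adjusted p = 0.999 in the authors' deposited table, with an interval from -0.74 to 0.33. Kitl (ENSMUSG00000019966, chromosome 10, 100015630 to 100100416, plus strand), the ligand, had 1547 in Yeti and 1735 in wild-type. The log2 fold change of Kitl was -0.17 ± 0.32, adjusted p = 0.999 in the authors' deposited table, with an interval from -0.79 to 0.46. Among all genes tested, 0.994% were called lower and 1.85% higher. Of 18 endothelial markers in the same libraries, 7 fell, 0 rose and 11 did not pass, with a median log2 fold change of -0.77 in the authors' deposited table. Their summed fitted level was 10007 normalized counts in Yeti and 13021 in wild-type, and none of the 18 was at 0. Eng, the most abundant, had 4106 in Yeti and 3519 in wild-type (0.22 ± 0.12), and Pecam1 stood at 0.25 ± 0.46; neither passed in the authors' deposited table. In the authors' deposited table, the smallest adjusted p-values among those that fell were of the lymphatic genes Mmrn1 (-2.91 ± 0.26) and Prox1 (-2.22 ± 0.33), the sialomucin gene Emcn (-1.98 ± 0.38) and the receptor kinase gene Tie1 (-1.42 ± 0.28). The part of endothelial RNA in the Kit and Kitl levels was not tested.

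Within each group the order of levels was different. On fitted levels per kilobase of exon in Yeti, Hdc (334), Cpa3 (280) and Kitl (262) came highest. Fcer1a (45.8), Kit (38.3) and Ms4a2 (34.1) followed in Yeti, and then Cma1 (20.5), Tpsb2 (8.04), Mcpt4 (7.58) and Tpsab1 (0.811). In wild-type on the same per-kilobase scale, Cpa3 (341) and Kitl (294) were followed by Cma1 (207), Hdc (187), Mcpt4 (170) and Tpsb2 (160). The chymase and tryptase genes other than Tpsab1 thus stood beside Hdc in wild-type and below both IgE receptor genes in Yeti. Kit (44.2), Fcer1a (30.6), Ms4a2 (20.0) and Tpsab1 (5.02) came last in wild-type. Whether neighbours in these orders differ beyond their spread cannot be tested without values per library. The between-library coefficient of variation derived from the authors' standard errors ran from 0.228 (Kit) to 0.596 (Tpsab1), with 0.207 as the median of all genes tested. All 10 genes lay above that median. Kitl (0.270) and Cpa3 (0.287) were next to Kit, and Ms4a2 (0.561) and Mcpt4 (0.547) had the largest values after Tpsab1. These are values implied by the fitted errors, not a spread observed between libraries.

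Promoter sequences are shown for a pair of genes that fell, Mcpt4 and Cma1, and a pair that did not pass, Cpa3 and Ms4a2, to let the upstream regions of both kinds be compared. GATA factors, chiefly GATA2 and GATA1, and MITF are known regulators of mast cell genes. The sequences are the 250 bases before the RefSeq transcription start (GRCm38.p6), 5′ to 3′ on the strand of the gene. Capitals mark the GATA motif, searched as AGATAA or AGATAG or TGATAA or TGATAG on both strands.
Mcpt4, chr14:56062311-56062560, minus strand: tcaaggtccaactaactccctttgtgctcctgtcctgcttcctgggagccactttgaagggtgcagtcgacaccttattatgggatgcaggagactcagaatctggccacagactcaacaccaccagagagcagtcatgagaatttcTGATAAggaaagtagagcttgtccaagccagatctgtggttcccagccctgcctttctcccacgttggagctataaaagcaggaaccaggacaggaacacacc
Cma1, chr14:55944676-55944925, minus strand: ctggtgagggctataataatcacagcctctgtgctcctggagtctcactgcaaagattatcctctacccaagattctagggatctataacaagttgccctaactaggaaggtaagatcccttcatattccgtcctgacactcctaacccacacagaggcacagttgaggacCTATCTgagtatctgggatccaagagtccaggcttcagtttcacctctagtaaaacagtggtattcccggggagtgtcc
Cpa3, chr3:20242182-20242431, minus strand: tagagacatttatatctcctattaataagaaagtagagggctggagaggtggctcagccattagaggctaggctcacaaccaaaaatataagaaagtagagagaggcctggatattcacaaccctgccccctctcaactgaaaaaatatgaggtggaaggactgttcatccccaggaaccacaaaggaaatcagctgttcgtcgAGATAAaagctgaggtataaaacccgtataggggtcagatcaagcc
Ms4a2, chr19:11623720-11623969, minus strand: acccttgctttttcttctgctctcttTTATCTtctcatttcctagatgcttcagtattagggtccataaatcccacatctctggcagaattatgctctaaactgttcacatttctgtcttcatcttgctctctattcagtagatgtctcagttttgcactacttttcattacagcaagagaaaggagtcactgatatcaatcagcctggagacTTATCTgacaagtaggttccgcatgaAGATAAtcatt
Each of the 4 windows held the motif. It began 103 bases before the start in Mcpt4, 79 in Cma1 and 46 in Cpa3, and 3 copies lay between 224 and 11 bases before the start in Ms4a2. Of the 8 genes matched to a promoter, 6 had at least 1 GATA motif: these 4, Fcer1a and Hdc. Kit and Kitl had none. The RefSeq start is not always the outer end of the gene in GENCODE. By the GENCODE coordinates, the Hdc window lies inside the gene, and the Kit and Kitl windows lie partly inside theirs. Of all 32851 RefSeq windows of the same length, 26.5% held the GATA motif. The MITF E-box, searched as CACATG or CACGTG on both strands, was in 1 of the 8, Fcer1a, and in 17.6% of all windows. The interferon-gamma-activated site TTCNNNGAA, searched on both strands, was in 0 of the 8 and in 7.02% of all windows. A match is only a stretch of letters, and the motif was found in genes on both sides of the call.

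The regulators named by these motifs did not pass. Gata2 had 1224 normalized counts in Yeti and 606 in wild-type, at 1.01 ± 0.60 (log2; adjusted p = 0.717 in the authors' deposited table). Gata1 had 26.4 in Yeti and 9.39 in wild-type, at 1.49 ± 0.70 (adjusted p = 0.427 in the authors' deposited table). Mitf, at 348 in Yeti and 354 in wild-type, stood at -0.02 ± 0.16 in the authors' deposited table.

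The chymase and tryptase genes lie in 2 clusters with other serine protease genes, among them basophil genes whose fitted levels were the higher ones in Yeti. The chymase locus spans 321 kilobases of chromosome 14 from Cma1 to Gzmb (55941451 to 56262260, GRCm38) and holds 10 genes of the deposited table. Beyond Mcpt4 lies Mcpt8, a protease gene of basophils, which had 103 normalized counts in Yeti and 20.5 in wild-type. The log2 fold change of Mcpt8 was 2.33 ± 0.80, adjusted p = 0.106 in the authors' deposited table, so it did not pass. Further along, the neutrophil and monocyte protease gene Ctsg stood at 1.19 ± 1.45 and the granzyme genes Gzmc at 3.34 ± 1.38 and Gzmb at 1.01 ± 0.47 in the authors' deposited table, and none of these passed. Gzmc was scarce, with a mean of 5.45 normalized counts, close to the lowest mean with an adjusted p, 4.57. Mcpt1 and Mcpt2, chymase-family genes of mucosal mast cells, had mean counts of only 0.956 and 1.26 in the authors' deposited table, too low for an adjusted p.

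The tryptase locus on chromosome 17 spans 76.0 kilobases (25298394 to 25374442). At its low-coordinate end lies Prss34, a tryptase-like protease gene known from basophils, with 68.1 normalized counts in Yeti and 13.7 in wild-type. Prss34 stood at 2.31 ± 0.89 on the log2 scale, adjusted p = 0.193 in the authors' deposited table. At the other end lies Tpsg1, a membrane-anchored tryptase gene, at -2.43 ± 1.74 with a mean count of 3.32 and no adjusted p in the authors' deposited table. The choice of these loci was made after values had been seen, and the contrast between neighbours was not tested.

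**Figure D3:**
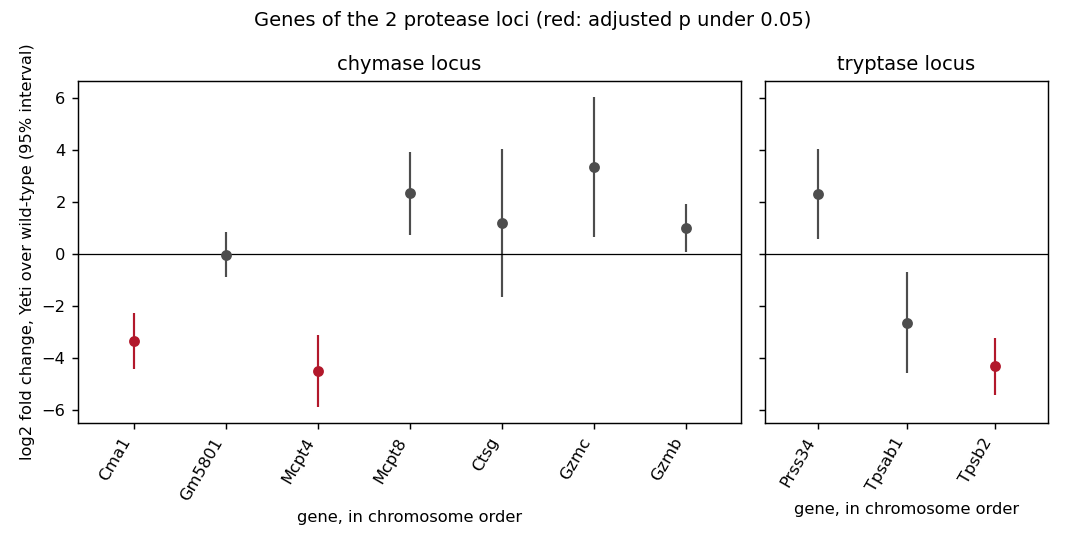
Log2 fold change, Yeti over wild-type, of the genes with an adjusted p in the chymase locus (left) and the tryptase locus (right), in chromosome order, from the authors' deposited table; lines are 95% intervals and red marks an adjusted p under 0.05. Cma1 and Mcpt4 lie at -3.34 and -4.49 while Mcpt8 lies at 2.33, and Tpsb2 lies at -4.31 while Prss34 lies at 2.31.

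Of the other mast cell markers, 1 passed. Of 21 tested, 0 rose and 1 fell, with a median log2 fold change of 0.11 in the authors' deposited table. Over all genes tested, 1.85% were called higher and 0.994% lower. With the markers that have no adjusted p included, 14 of 27 lay above 0 and 13 below, and the median was 0.09. Of the 21 tested, 14 lay above 0 and 7 below. Every marker without an adjusted p thus lay below 0: Mcpt1 (-3.35 ± 2.13), Mcpt2 (-3.75 ± 2.76), Tpsg1 (-2.43 ± 1.74), Mrgprb2, Rgs13 and Adora3. The interval of each included 0. The median of 0.11 leaves these markers out, and other cells express many of the tested ones as well. The gene that fell was Mrgprb1, a receptor gene of the Mas-related family (-3.58 ± 1.08, adjusted p = 0.0347 in the authors' deposited table), with 1.68 normalized counts in Yeti and 20.1 in wild-type. With the adjustment taken over every gene that has a p-value, Mrgprb1 did not pass (adjusted p = 0.0503). Genes with a mean too low for an adjusted p were Mrgprb2, the receptor through which peptides and drugs activate mouse connective tissue mast cells (-2.42 ± 1.43), and Rgs13, a regulator of G protein signalling (-2.35 ± 1.56), in the authors' deposited table. Their intervals and that of Tpsg1 include 0. The adenosine receptor gene Adora3 (-0.69 ± 0.86) had no adjusted p either in the authors' deposited table.

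The remaining tested markers of the list, many of which other cells express as well, did not pass. The granule proteoglycan gene Srgn, the most abundant of the list, had 3218 normalized counts in Yeti and 3012 in wild-type. In the authors' deposited table it stood at 0.10 ± 0.49, the heparin-sulfating Ndst2 at -0.04 ± 0.11, the monoamine transporter Slc18a2 at 0.36 ± 0.37 and the steroid-synthesis enzyme Cyp11a1 at 0.84 ± 0.67. The interleukin-33 receptor gene Il1rl1 stood at -1.01 ± 0.54 and the transcription factor gene Tal1 at -0.73 ± 0.42 in the authors' deposited table. Of the eicosanoid genes, Alox5 (0.10 ± 0.47), Alox5ap (0.63 ± 0.60), Ltc4s (-0.48 ± 0.49), Hpgds (0.11 ± 0.37) and Ptgs1 (0.25 ± 0.29) missed the threshold in the authors' deposited table. The same was true of Rab27b (0.59 ± 0.36), Lat2 (-0.25 ± 0.54), Serpinb1a (0.09 ± 0.29) and Smpx (1.03 ± 0.74) in the authors' deposited table. Mcpt9 was not analysed here.

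Basophil, eosinophil and neutrophil markers were measured beside them, as cells that share some of the 10 genes. Of 5 basophil markers, 0 passed, and 3, all higher, had an unadjusted p under 0.05; the median log2 fold change was 0.69 in the authors' deposited table. The 3 were Mcpt8, Prss34 and Il3ra. The summed fitted level of the 5 was 1431 normalized counts in Yeti and 1021 in wild-type, most of it from the interleukin-3 receptor gene Il3ra (0.34 ± 0.17), and none was at 0. The authors' deposited table gave Cd200r3, a receptor gene of mast cells and basophils, 0.69 ± 0.66. Of 6 eosinophil markers, 0 passed, and 2, each higher, had an unadjusted p under 0.05. These were Prg2 (2.37 ± 0.82) and Ear2 (0.72 ± 0.26), the most abundant. The median of the 6 was 0.59 in the authors' deposited table. Of 9 neutrophil markers, 0 passed and 0 had an unadjusted p under 0.05. The median of the 9 was 0.37 in the authors' deposited table, S100a9 the most abundant. Their summed levels were 878 in Yeti and 593 in wild-type for eosinophils, and 7527 in Yeti and 5950 in wild-type for neutrophils. The part of these cells in the levels of Hdc, Cpa3, Fcer1a and Ms4a2 was not tested.

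Several signals known to act on mast cells from outside rose, unlike Kit ligand, which did not pass. Of 11 mast cell growth factor and attractant genes tested, 5 rose and 0 fell, with a median log2 fold change of 1.13 in the authors' deposited table. Over all genes tested, 1.85% were called higher and 0.994% lower, and the list was chosen with earlier results known. Cx3cl1, the fractalkine gene, rose by 1.38 ± 0.20, and Tslp, the gene of an epithelial and stromal alarmin, by 1.13 ± 0.28 in the authors' deposited table. Il10 (3.10 ± 0.78), Ccl2 (1.54 ± 0.44) and Il6 (1.95 ± 0.56) rose as well in the authors' deposited table; the protein of Il10 is mostly made by leukocytes. Cxcl12, the most abundant, had 10789 normalized counts in Yeti and 7502 in wild-type and did not pass (0.52 ± 0.22, adjusted p = 0.279 in the authors' deposited table). Il33 (0.02 ± 0.37), Tgfb1 (0.22 ± 0.31), Il4 (0.24 ± 0.35) and Tnf (1.19 ± 0.49) missed the threshold in the authors' deposited table. Macrophage and monocyte markers, of cells that also make several of these factors, had a summed level of 20011 in Yeti and 12644 in wild-type. Of the 15, 0 passed, and 4, all higher, had an unadjusted p under 0.05. Of these 15 markers, 12 lay above 0 and none was at 0, with Lyz2 the most abundant. The part of these cells in the factor levels was not tested.

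Downstream of Kit and FcεRI, none of 20 signalling genes passed. Their median log2 fold change was -0.03, and 1 gene, a higher one, had an unadjusted p under 0.05 in the authors' deposited table. That gene was Lcp2, the adaptor SLP-76 (1.18 ± 0.52). Pik3r1, the most abundant and a subunit of phosphoinositide 3-kinase, stood at 0.05 ± 0.14 in the authors' deposited table. Syk (-0.44 ± 0.61) and Lyn (0.11 ± 0.39), which relay the IgE signal, are used by many leukocytes, and the authors' deposited table gave them wide errors.

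**Figure D4:**
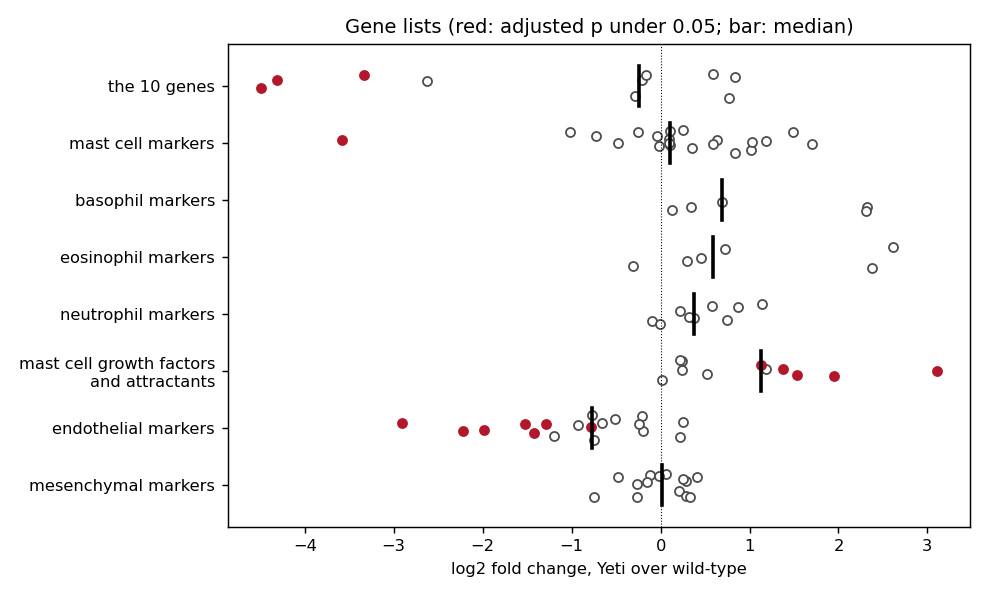
Log2 fold change, Yeti over wild-type (x axis), of each gene with an adjusted p in 8 gene lists, from the authors' deposited table; points are genes, red marks an adjusted p under 0.05 and the black bar is the list's median. The 10 genes fall into a group below -2 and a group around 0, basophil markers have a median of 0.69, and endothelial markers have one of -0.77.

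Other populations that the sort was set to remove were measured as a check. Mesenchymal markers, melanocyte markers and mediator genes were measured beside them. Of 10 B and plasma cell markers, 3 fell and 0 rose in the authors' deposited table (Igkc, Jchain and Mzb1), with a summed level of 51184 in Yeti and 140996 in wild-type. All 10 lay below 0, with a median log2 fold change of -1.01 in the authors' deposited table. The shares called over all genes tested were 0.994% lower and 1.85% higher. Of 12 T and NK markers and 12 epithelial markers, 0 passed, with medians of -0.77 and -0.04 in the authors' deposited table. An unadjusted p under 0.05 was found for 6 T and NK markers, 4 lower and 2 higher, and for 2 epithelial markers, each lower. The most abundant of each were Cd2 (-0.68 ± 0.47) and Scgb1a1 (-0.97 ± 0.38) in the authors' deposited table. Another T cell marker, Cd8a, had no p-value in the authors' deposited table. Of 14 mesenchymal markers 0 passed, with a median of 0.02 in the authors' deposited table. Col3a1, a collagen gene and the most abundant of these, had a log2 fold change of 0.29 ± 0.17 there. Of 10 tested genes for receptors and breakdown of mast cell mediators, 0 passed, with a median of 0.15; the histamine methyltransferase gene Hnmt, the most abundant, was at -0.31 ± 0.36 in the authors' deposited table. Melanocytes also use Kit, and 0 of 4 tested melanocyte markers passed, with a median of -0.92; Pmel, the most abundant, was at -0.63 ± 0.26 in the authors' deposited table.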

How the data were processed

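RNA was measured in 6 libraries, 3 Yeti and 3 wild-type, grouped by sample titles. The submitters' processing notes name FastQC, STAR, DESeq and the builds GRCm38 and mm10, with no tool version. How reads were counted, and with which strand setting, is not given in the sources used here. A single file holds the authors' own comparison. Per the file headers, its mean is a signal (size-factor normalized count), the fold change and standard error are log2 values, and the Wald statistic is a score. The p-value and adjusted p-value are the authors' deposited DESeq2 values. The fold change runs Yeti over wild-type, as the table is named. The mean normalized counts summed to 26646632, the average scaled depth; depth per library is not in the table.

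The 10 genes and all lists were chosen with earlier results of these data known. The members are all named; of each list the most abundant gene (by mean count) and those with an adjusted p under 0.05, at most the 4 smallest, are named, and every mast cell marker. Il6, genes of the loci, Lcp2, Il3ra and some other list members were named after their values were seen. Some list genes are not reported here. Fitted levels assume equal group sizes. The coefficient of variation is the spread that gives the authors' standard error with 3 libraries per group under a negative binomial model. Intervals are 95% normal intervals from that error. Coordinates and exon lengths (union of exons) come from GENCODE M21, which matched 29185 of 29322 genes, and promoters from RefSeq, which matched 8 of the 10. The adjustment, tested on simulated data, gave the deposited adjusted p-values within 3.91e-06. Python 3.11.15, pandas 2.3.3 and scipy 1.17.1 were used.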

Additional observations from a re-analysis of the deposited data

How the results depend on the processing

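The calls for the 10 genes were the same under every alternative that could be run: 3 genes called with the adjustment taken over all genes with a p-value, with adjusted p thresholds of 0.1 and 0.01, and with a log2 fold change of at least 1 required as well. Centring fold changes on the median of all genes (-0.00092) or of the mesenchymal markers (0.02) turned no sign, and the largest adjusted p of Mcpt4, Tpsb2 and Cma1 was 2.09e-07. The adjusted p of Tpsab1 ranged from 0.165 to 0.242. Each symbol had a single row, so summing rows gave the same values. The 3 called genes lay far from each threshold and the centring shifts were small, so these alternatives could hardly change the calls. At an adjusted p under 0.1, 1 mast cell marker (Fcer1g) and 1 macrophage and monocyte marker (Csf1r) were higher, against 0 at 0.05, and 8 endothelial markers were lower, against 7. As an alternative added after seeing the data, the adjustment for list genes was taken over every gene that has a p-value, and Mrgprb1 (0.0503) and Mzb1 (0.0715) then did not pass. Leaving out a replicate could not be run, and no paired analysis was possible because the table gives no values per library. For the same reason the values of single libraries and the overlap of groups cannot be seen. Of the 29322 genes, 14 had no p-value, which is DESeq2's default mark for an outlying count in a library; Cd8a was 1 of them, and none of the 10 genes was. Low means limit Tpsab1, Mrgprb1 and the markers without an adjusted p.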

Other observations

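Receptors and enzymes that receive or clear mast cell mediators did not pass. Of 10 tested, 0 had even an unadjusted p under 0.05, and the median log2 fold change was 0.15 in the authors' deposited table. Hnmt, which inactivates histamine and was the most abundant, had 128 normalized counts in Yeti and 159 in wild-type (-0.31 ± 0.36). F2rl1, the gene of the protease-activated receptor that tryptase can cleave, had 67.3 in Yeti and 76.5 in wild-type (-0.19 ± 0.24), and the histamine receptor genes Hrh1 (-0.83 ± 0.61) and Hrh2 (0.57 ± 0.48) missed the threshold in the authors' deposited table.

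Melanocyte genes, of another lineage that depends on Kit, were present at low level. Of 4 tested, 0 passed and all 4 lay below 0, 2 of them with an unadjusted p under 0.05; their median log2 fold change was -0.92 in the authors' deposited table. Pmel, the most abundant, had 73.0 normalized counts in Yeti and 113 in wild-type (-0.63 ± 0.26 in the authors' deposited table). Sox10, which Schwann cells also express, had 33.2 in Yeti and 66.4 in wild-type.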
